A study of Mus musculus with 12 samples.

Results

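The libraries described here are the 6 labelled WT in a series of 12 retinal mRNA libraries from mouse pups, and they were taken by their labels, not by any measured value. In 3 of them, labelled Hypoxia, 3 day (post OIR) and called WT OIR here, C57BL/6 pups had been through oxygen-induced retinopathy (OIR): 75% oxygen from postnatal day 7 to 12, then 3 days in room air, with the retina taken at postnatal day 15. The other 3, labelled WT normoxia, came from C57BL/6 pups of the same postnatal day that had stayed in room air (21% oxygen). The remaining 6 libraries are labelled Caspase1 knockout (Casp1 KO below), 3 in normoxia and 3 from OIR, and are used below for a side-by-side comparison and an alternative fit only. The methods state that pups of both sexes were used. How many animals each library holds is not stated, so the p-values measure the spread between these libraries, which may be partly technical. The OIR pups differ from the normoxia pups both by the days of high oxygen and by the return to room air, and these cannot be told apart.

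High oxygen prunes the growing capillaries of the retina of a newborn mouse, and on return to room air the unperfused centre of the tissue becomes hypoxic. Hypoxic neurons and glia then release vascular endothelial growth factor and related signals through hypoxia-inducible factors (HIF), and endothelial cells at the edge of the unperfused area form sprouts led by tip cells. Photoreceptors make up most cells of the mouse retina and are fed largely by the choroid, while bipolar, amacrine, horizontal and ganglion cells of the inner retina depend on the retinal vessels, and Muller glia span the whole tissue.

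The files hold whole-number read counts per gene, made from the 3′ ends of polyadenylated transcripts, so that levels of different genes can be compared without dividing by transcript length. Total counts ran from 4049035 to 22815830 over the 6 libraries, and WT normoxia replicate 2 held 4.03 times the counts of the next deepest library. Levels are given as CPM, the share of a gene's reads in its library on a scale set by edgeR's TMM normalization: fewer cells of a type and less RNA per cell cannot be told apart in such samples. The rod genes Gnat1 and Sag, which carry and end the light response, stood between 5370 and 9090 CPM in each of the 6 libraries, as the label retina calls for. The first principal component held 31.9% of the variance and separated the groups, and the second (23.2%) set WT OIR replicate 3 at 59.7 apart from OIR replicates 1 and 2 at -44.1 and -22.7. Counts of OIR replicate 3 also lay far from those of OIR replicates 1 and 2, with chi-square values of 14.4 and 13.6 per degree of freedom, against 5.22 between those 2 and 4.66 to 9.97 among the normoxia libraries. Sex also moved with the groups: Xist, transcribed from the inactive X chromosome of females, stood at 521, 484 and 465 CPM in normoxia and at 435, 2.93 and 120 CPM in OIR. The Y-linked Ddx3y stood at 46.1, 53.8 and 54 CPM in normoxia and at 59.6, 141 and 76.4 CPM in OIR. At these levels of both genes, each normoxia library and OIR replicates 1 and 3 read as RNA of both sexes, and so of more than 1 pup. In OIR replicate 2 Xist was low. The part of sex composition in the results below was not tested. Reads of Casp1, the gene named by the other label, ran counter to that label, with 7 reads in all under the WT label and 126 under the Casp1 KO label, so the genotype is given here as a label only.

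Between OIR and normoxia, 638 of 14946 genes tested differed at an adjusted p under 0.05, which is 4.27% of them. Of these, 224 were higher in OIR (1.50% of the genes tested) and 414 were lower (2.77%). These shares are the background for the counts of list members called below. All adjusted p-values in the text come from edgeR's quasi-likelihood test with Benjamini-Hochberg adjustment over all genes tested, and "called" means an adjusted p under 0.05. The higher genes changed more, with a median log2 fold change of 1.07, than the lower genes, with a median of -0.76, and the median over all genes tested was 0.01. A log2 change of 1 or more in size was reached by 121 of the higher and 95 of the lower genes. The 2 groups of libraries were free of overlap in CPM for 635 of the 638 genes, and for 22.6% of all genes tested. Called genes were spread over the chromosomes, at 3.19% to 5.96% of the genes tested on each autosome and the X chromosome. The number called became 299, 290 and 281 without normoxia replicate 1, 2 and 3, 356 without OIR replicate 2 and 1064 without OIR replicate 3.

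**Figure D1:**
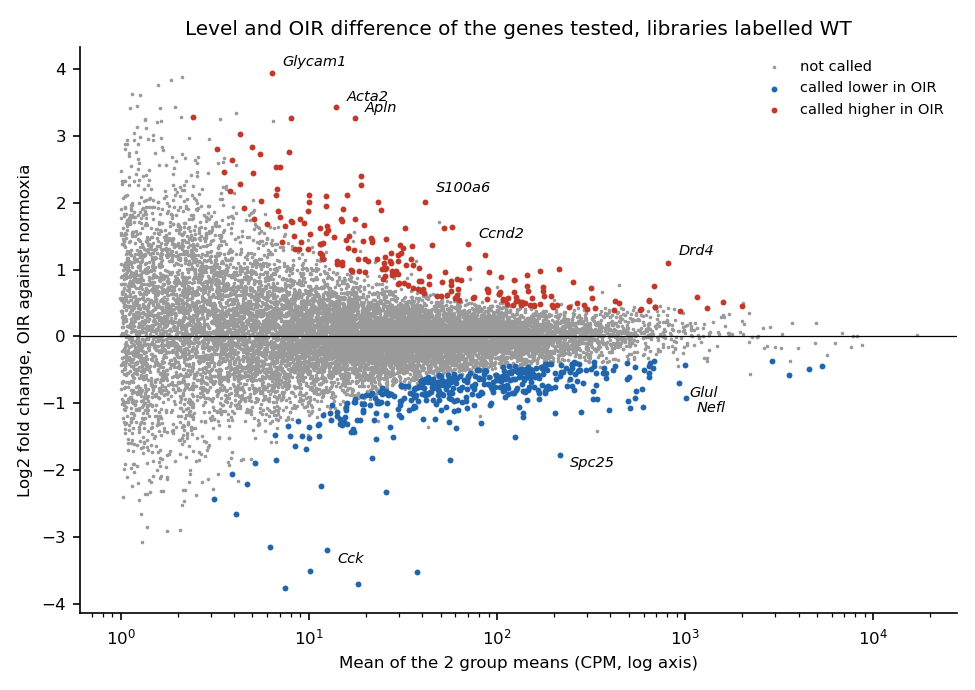
Each point is a gene: the horizontal log axis gives the mean of the 2 group means in CPM, the vertical axis the log2 fold change of OIR against normoxia, red and blue points the genes called higher and lower, and 56 genes with a group at 3 reads or fewer in each library are left out. Genes called lower sit mostly between -2 and 0 at moderate and high levels and genes called higher reach larger changes at low levels.

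The genes higher in OIR with the smallest p-values, taken among changes of 1 or more on the log2 scale, included secreted, matrix and metal-binding proteins. Ccnd2, which encodes cyclin D2 (chromosome 6, 127125162 to 127152193 in GRCm38, minus strand), stood at 38.4, 37.9 and 39.8 CPM in the normoxia libraries and at 101, 102 and 99.9 CPM in the OIR libraries. The libraries of a group lay within a few CPM of each other, and the mean was 1.38 higher on the log2 scale in OIR (standard error 0.14, adjusted p = 1.01e-05). Glycam1, which encodes a secreted mucin-like protein (chromosome 15, 103562759 to 103565081, minus strand), stood at 0.71, 0.94 and 0.44 CPM in normoxia and at 12.8, 9.51 and 13.7 CPM in OIR (log2 fold change 3.95, standard error 0.50, adjusted p = 6.71e-05). In normoxia replicates 1 and 3 its values are close to the upper limit for a gene with no reads, 3 reads or 0.533 and 0.65 CPM in those libraries, which covers counting error only. In the deeper replicate 2 it had 21 reads. Secreted and matrix proteins followed: Pcolce, an enhancer of procollagen processing, had a log2 fold change of 2.41 (its annotated gene overlaps Fbxo24 on the same strand, so that its reads are uncertain), Fbln1 (fibulin 1) of 2.10, Vcan (versican) of 2.11 and Optc (opticin, a proteoglycan of the vitreous) of 1.62. The imprinted noncoding RNA H19 had 7.65, 6.19 and 5.25 CPM in normoxia and 25, 23.6 and 23 CPM in OIR, a log2 fold change of 1.90. The metallothioneins Mt1 and Mt2, which bind zinc and copper, rose with log2 fold changes of 1 and 1.22, while the other 8 members tested of the list of metallothioneins and targets of the oxidant-response factor NRF2 were not called.

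**Figure D2:**
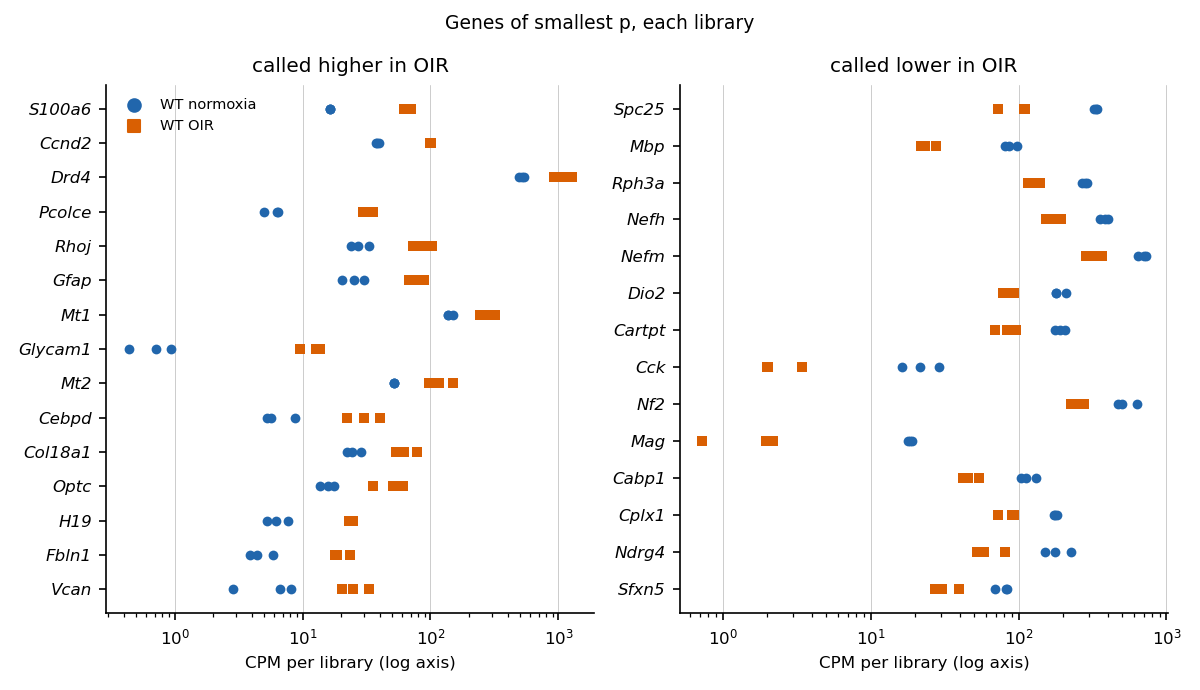
CPM on a log axis for 15 genes called higher (left) and 14 called lower (right) with the smallest p among changes of 1 or more on the log2 scale, 1 point per library, circles for the normoxia libraries and squares for the OIR libraries. The 3 OIR libraries lie on 1 side of the 3 normoxia libraries for each gene, which the choice of these genes required.

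Among the genes lower in OIR with the smallest p-values, Rph3a, which encodes the synaptic vesicle protein rabphilin 3A (chromosome 5, 120940499 to 121010092, minus strand), stood at 289, 281 and 269 CPM in normoxia and at 123, 140 and 116 CPM in OIR (log2 fold change -1.15, standard error 0.12, adjusted p = 1.01e-05). Neuropeptide genes fell: Cartpt stood at 177, 192 and 205 CPM in normoxia against 83.2, 95.5 and 68.9 CPM in OIR, and Cck at 21.5, 29 and 16.4 CPM against 3.44, 2.01 and 2.01 CPM. Both peptides are made by subsets of inner retinal neurons, and their log2 fold changes were -1.21 and -3.21. Dio2, the deiodinase that makes active thyroid hormone, fell from 180, 208 and 181 CPM to 78.5, 93.4 and 85 CPM. The calcium sensor gene Cabp1 had a log2 fold change of -1.30, Sfxn5, which encodes a mitochondrial carrier, of -1.28, and Nf2, which encodes merlin, of -1.10. The 29 genes shown in the plot of CPM by library kept their calls in each of the other settings tried in which they were tested.

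Calls among the marker genes of retinal neurons were mostly in ganglion and amacrine cell genes. Of 53 markers tested of ganglion, amacrine, horizontal and bipolar cells, 23 were called lower and 0 higher, with a median log2 fold change of -0.58. Without normoxia replicate 3 the amacrine and bipolar cell calls among them fell from 9 and 4 to 2 and 1. Of 28 markers tested of rods and cones, 1 was called higher and 1 lower, with a median of 0.09. Over all genes tested, 2.77% were called lower and the median was 0.01. All gene lists here were chosen with earlier results of these data known, so such contrasts describe the lists and do not test them.

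**Figure D3:**
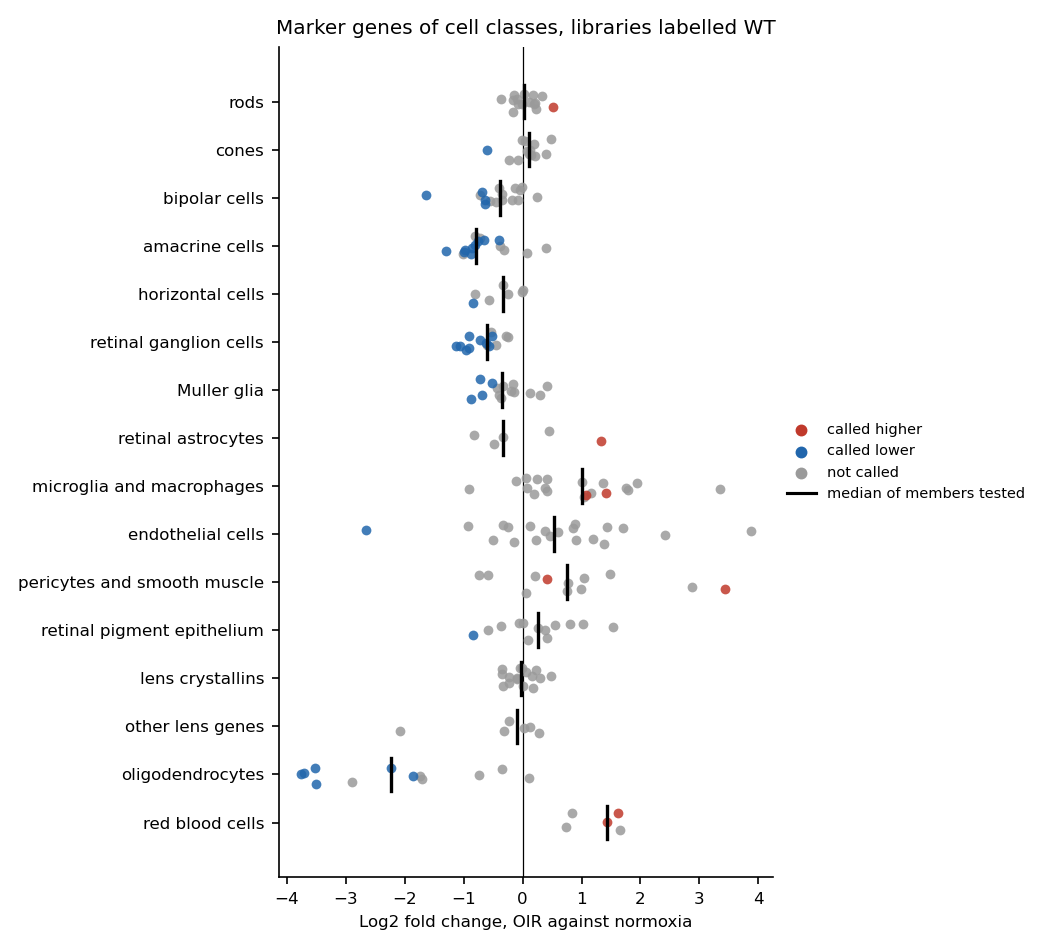
Log2 fold change of OIR against normoxia for each marker tested of 16 cell classes, 1 point per gene, with red, blue and grey for called higher, called lower and not called, and a black bar at the median of the class. All ganglion and 14 of 16 amacrine cell markers lie below 0, rod and cone markers lie around 0, and oligodendrocyte markers reach the largest negative values; Olig2, with no reads in OIR, is left out.

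Retinal ganglion cells, whose axons form the optic nerve, had 14 of 15 markers tested, and 9 of them were lower in OIR. The median was -0.61, all 14 had a fitted log2 fold change below 0, and for 12 the 2 groups did not overlap. Of all genes tested, 2.77% were called lower and 22.6% did not overlap in either direction. The neurofilament genes, which encode the cytoskeleton of large axons, carried the smallest p-values. Nefl (chromosome 14, 68083863 to 68089095, plus strand) stood at 1340, 1400 and 1220 CPM in normoxia and at 788, 719 and 593 CPM in OIR. Nefm (chromosome 14, 68082590 to 68124846, minus strand) stood at 642, 724 and 710 CPM and at 336, 369 and 284 CPM. Nefh (chromosome 11, 4938754 to 4948064, minus strand) stood at 356, 406 and 387 CPM and at 195, 178 and 152 CPM. All OIR libraries lay below all normoxia libraries in each of them, and the log2 fold changes were -0.92, -1.07 and -1.13 (standard errors 0.11, 0.11 and 0.12; adjusted p = 4.93e-05, 1.01e-05 and 1.01e-05). The annotated forms of Nefl and Nefm overlap on opposite strands, and whether strand was used in counting is not given in the sources used here. Thy1, a surface glycoprotein of ganglion cells, fell from 199, 184 and 189 CPM to 112, 109 and 75.1 CPM (log2 fold change -0.95, adjusted p = 0.000395). Slc17a6, their vesicular glutamate transporter, fell from 158, 173 and 179 CPM to 111, 112 and 110 CPM (-0.62, adjusted p = 0.00373). Rbpms, an RNA-binding protein found in nearly all ganglion cells, had 95.4, 91 and 88.4 CPM against 79.5, 79.4 and 72.7 CPM and was not called (log2 fold change -0.25, standard error 0.13, adjusted p = 0.382). Pou4f1, a transcription factor of these cells, had a log2 fold change of -0.45 (adjusted p = 0.0802). Nefl, Nefm, Nefh, Thy1 and Slc17a6 kept their calls in each setting tried, and Pou4f1 passed the threshold in 3 of them.

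Amacrine cells are the inhibitory interneurons of the inner retina. Of their 16 markers, 9 were lower in OIR and 0 higher, with a median log2 fold change of -0.78 and no overlap between the groups for 12. C1ql1, a secreted synaptic organizer, stood at 142, 125 and 103 CPM in normoxia and at 61.8, 66 and 58.2 CPM in OIR (log2 fold change -0.99, standard error 0.15, adjusted p = 0.000345). Genes for making and loading the transmitter GABA fell together: Gad1 from 141, 85.5 and 86.8 CPM to 48.8, 63.6 and 56.5 CPM, Gad2 from 39.1, 41.7 and 40.2 CPM to 15.2, 27.2 and 19 CPM, and the vesicular transporter Slc32a1 from 60.8, 61 and 65 CPM to 28.7, 38.8 and 38.5 CPM. The glycine transporter Slc6a9, with a log2 fold change of -0.38, was not called (adjusted p = 0.267). Chat and Slc5a7, genes of acetylcholine use, were the 2 markers fitted above 0, at 0.08 and 0.40, and were not called. Slc18a3, the vesicular transporter of acetylcholine, was not called either, at -0.80. The call of C1ql1 held in each setting, while Slc32a1 lost it without normoxia replicate 3 (adjusted p = 0.0528), Gad1 without normoxia replicate 1 (0.0885), and Gad2 without any of the 3 normoxia libraries or OIR replicate 1 (up to 0.0728). Tfap2b, an amacrine transcription factor (log2 fold change -0.40, adjusted p = 0.0443), lost its call in 8 settings, other scalings of the libraries among them.

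Of the 16 bipolar cell markers, 4 were lower and 0 higher, against 2.77% lower over all genes tested, with a median of -0.38. The defining markers of rod bipolar and ON bipolar cells did not pass the test: Grm6, the glutamate receptor of ON bipolar cells, had 52.5, 79.7 and 54.5 CPM in normoxia and 62.6, 60.5 and 59.6 CPM in OIR, and the log2 fold changes of the channel Trpm1 and the kinase Prkca were -0.08 and -0.13. Lrtm1 stood at 603, 620 and 561 CPM in normoxia and at 383, 387 and 381 CPM in OIR (log2 fold change -0.63, adjusted p = 0.000720), a call that held in each setting. Its gene lies within Cacna2d3 on the opposite strand. Scgn, a calcium-binding protein of cone bipolar cells, and Tacr3, a tachykinin receptor of OFF bipolar cells, had log2 fold changes of -0.68 and -1.64, and their calls were lost in 5 and 3 settings, each of which but 1 left out a library (adjusted p up to 0.188). Of 7 horizontal cell markers tested, Calb1 (calbindin), which amacrine and ganglion cells also make, was called, at 106, 103 and 113 CPM against 55.9, 69.8 and 53.4 CPM (log2 fold change -0.84, adjusted p = 0.00143). The defining horizontal cell genes Lhx1 and Onecut1, at log2 fold changes of -0.01 and -0.34, were not called, and Gja10 had no reads.

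Few photoreceptor markers passed the test. The rod markers Gnat1 and Sag had log2 fold changes of -0.10 and -0.15 and were not called. Gnat1 stood at 6340, 6420 and 6550 CPM in normoxia and at 6930, 5370 and 5780 CPM in OIR. Sag passed the threshold in 1 setting, without OIR replicate 3. A missed threshold does not show equal levels. Nr2e3, a nuclear receptor that holds rods to their fate, was called higher, at 1330, 1270 and 1340 CPM against 1720, 1700 and 2180 CPM (log2 fold change 0.51, adjusted p = 0.00807), and it lost the call when any normoxia library was left out (up to 0.0776). Cone arrestin, Arr3, which ends the light response, was the cone marker called lower, at 224, 190 and 162 CPM against 131, 119 and 128 CPM (log2 fold change -0.61, adjusted p = 0.00807), while the cone opsins Opn1sw and Opn1mw, at 0.13 and -0.24, were not called. The call of Arr3 was lost without normoxia replicate 1 or 2 or OIR replicate 2 (up to 0.0993).

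Of 14 Muller glia markers 4 were lower in OIR and 0 higher, against 2.77% lower over all genes tested. The median was -0.35, and 2 were called without normoxia replicate 1. Glul, glutamine synthetase, which removes glutamate and ammonia (chromosome 1, 153899944 to 153909723, plus strand), stood at 1080, 1170 and 1180 CPM in normoxia and at 643, 712 and 762 CPM in OIR (log2 fold change -0.70, standard error 0.10, adjusted p = 0.000377). Rlbp1, the retinaldehyde-binding protein of the visual cycle (chromosome 7, 79374870 to 79387048, minus strand), stood at 414, 419 and 414 CPM and at 283, 245 and 228 CPM (-0.72, adjusted p = 0.000511). The normoxia libraries of Rlbp1 lay close together, and no OIR library reached them. Aqp4, the water channel of glial endfeet, fell with a log2 fold change of -0.87, a call lost without normoxia replicate 1 (adjusted p = 0.0674), and Prdx6, a peroxiredoxin, had -0.52, a call lost in 9 settings. The glutamate transporter Slc1a3, at 145, 157 and 162 CPM against 186, 183 and 201 CPM, pointed the other way without passing the test (0.30, adjusted p = 0.171).

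Glial reactivity genes were higher in OIR. Of 19 genes 16 were tested, and 11 of these were called higher and 0 lower, against 1.50% higher over all genes tested. The median log2 fold change was 1.64. The OIR libraries lay above the normoxia libraries for all 16, where 22.6% of all genes tested did not overlap in either direction. This list too was chosen with earlier results of these data known, so the contrast is a description and no test. Gfap, the intermediate filament of astrocytes that stressed Muller glia also make (chromosome 11, 102887336 to 102900912, minus strand), stood at 25.3, 30.4 and 20.3 CPM in normoxia and at 88.8, 81.6 and 68.2 CPM in OIR (log2 fold change 1.62, standard error 0.18, adjusted p = 1.51e-05). Vim, the vimentin gene (chromosome 2, 13573927 to 13582826, plus strand), rose from 105, 116 and 122 CPM to 243, 228 and 202 CPM (0.97, adjusted p = 5.80e-05). Cebpd, a transcription factor of the acute response, stood at 8.72, 5.66 and 5.25 CPM and at 30.4, 40.6 and 22.4 CPM (2.27, adjusted p = 8.79e-05). Genes of the pathway of the gp130 cytokines, which signal through STAT3, were among the members: Stat3 itself rose from 69.6, 75.7 and 74.6 CPM to 120, 127 and 160 CPM (0.89, adjusted p = 0.000592), and its known targets Lcn2 (lipocalin 2), Serpina3n and A2m had log2 fold changes of 2.75, 2.54 and 1.66, while Socs3 and Osmr, at 1 and 1.44, were not called. Lcn2 varied widely in OIR, at 5.64, 12.4 and 23.2 CPM, and was highest in OIR replicate 3. Of 5 astrocyte markers, Gja1 (connexin 43, also made by Muller glia and vessels; chromosome 10, 56377330 to 56402513, plus strand) was called higher, at 19, 14.6 and 21 CPM against 36.8, 47.9 and 50.1 CPM (1.33, adjusted p = 0.000720). The astrocyte transcription factor Pax2 was near the floor, at 0.58 to 2.62 CPM in normoxia and 0.55 to 1.23 CPM in OIR, and Pdgfra, at 0.45, was not called. The calls of Gfap, Vim, Cebpd and Gja1 held in each setting tried.

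The list of the hypoxia response and glycolysis changed in a few members. Of 38 genes 37 were tested, 4 were higher and 2 were lower, against 1.50% higher and 2.77% lower over all genes tested. The median of 0.09 was near the 0.01 of all genes. Without normoxia replicate 2, 2 were called higher and 0 lower, and in the fit to all 12 libraries 8 were called higher and 3 lower. Adm, which encodes the vasodilator peptide adrenomedullin (chromosome 7, 110627661 to 110629820, plus strand), had 0 reads in the normoxia libraries and 78 in the OIR libraries, at 7.85, 6.95 and 1.46 CPM, so that it was at least 59.6-fold higher when set against 3 reads over the normoxia group (adjusted p = 0.00138). Vegfa (chromosome 17, 46016993 to 46032369, minus strand), the main growth factor of vessel sprouting, stood at 88.2, 90.2 and 83.6 CPM in normoxia and at 185, 169 and 119 CPM in OIR (log2 fold change 0.85, standard error 0.15, adjusted p = 0.00159). Egln3, the prolyl hydroxylase 3 that marks HIF for destruction and is itself a HIF target (chromosome 12, 54178981 to 54203860, minus strand), stood at 4.09, 2.49 and 0.44 CPM and at 13.2, 14.3 and 6.20 CPM (2.21, adjusted p = 0.0209). In these 3 genes OIR replicate 3 had the lowest value of the OIR libraries. Bnip3, a mitophagy receptor, had a log2 fold change of 0.49 (adjusted p = 0.0467). Genes of glucose use were not called higher: the glucose transporter Slc2a1 at 0.11, Pgk1 at 0.60, Pdk1 at 0.20 and Ldha at -0.04 were not called, and Hk2 (hexokinase 2) and Aldoc (aldolase C) were lower, at -0.51 and -0.49 (adjusted p = 0.0172 and 0.0151). The calls of Adm and Vegfa held in each setting that tested them, and those of Egln3, Bnip3, Hk2 and Aldoc were lost in 4, 7, 4 and 3 settings (adjusted p up to 0.223).

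HIF binds the letters ACGTG or GCGTG, and the promoters of the 3 hypoxia genes called higher with the smallest p show where these letters lie. A promoter here runs from 250 bases before to 50 bases after a start site in RefSeq on GRCm38.p6, both strands were searched, capitals mark a match, and the motif ACGTG is also part of the E-box CACGTG that other factors bind. Vegfa has 2 RefSeq start sites, and both windows are given. That of start 2 lies inside the annotated Vegfa gene (46016993 to 46032369), so its matches lie within the gene and not before it. The windows are Adm at chr7:110627407-110627706 (plus strand), Egln3 at chr12:54203825-54204124 (minus strand), Vegfa start 1 at chr17:46032328-46032627 (minus strand) and Vegfa start 2 at chr17:46025114-46025413 (minus strand), each written 5′ to 3′ along its gene.
Adm: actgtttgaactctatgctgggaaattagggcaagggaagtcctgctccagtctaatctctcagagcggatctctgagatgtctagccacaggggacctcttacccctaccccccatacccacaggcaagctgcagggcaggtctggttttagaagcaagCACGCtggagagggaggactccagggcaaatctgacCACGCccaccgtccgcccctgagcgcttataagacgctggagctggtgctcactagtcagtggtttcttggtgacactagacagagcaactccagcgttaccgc
Egln3: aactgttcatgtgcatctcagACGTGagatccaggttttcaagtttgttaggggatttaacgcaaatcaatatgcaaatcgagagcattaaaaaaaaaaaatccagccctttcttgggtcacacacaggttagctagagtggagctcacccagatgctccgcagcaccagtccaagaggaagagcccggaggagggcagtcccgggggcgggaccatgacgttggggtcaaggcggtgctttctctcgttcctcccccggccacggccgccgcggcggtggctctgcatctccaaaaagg
Vegfa start 1: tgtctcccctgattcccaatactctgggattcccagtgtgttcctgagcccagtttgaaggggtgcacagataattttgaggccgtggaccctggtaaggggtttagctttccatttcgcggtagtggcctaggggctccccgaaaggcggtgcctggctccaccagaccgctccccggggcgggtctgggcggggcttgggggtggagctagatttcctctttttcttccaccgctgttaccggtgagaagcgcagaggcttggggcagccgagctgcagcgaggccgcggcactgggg
Vegfa start 2: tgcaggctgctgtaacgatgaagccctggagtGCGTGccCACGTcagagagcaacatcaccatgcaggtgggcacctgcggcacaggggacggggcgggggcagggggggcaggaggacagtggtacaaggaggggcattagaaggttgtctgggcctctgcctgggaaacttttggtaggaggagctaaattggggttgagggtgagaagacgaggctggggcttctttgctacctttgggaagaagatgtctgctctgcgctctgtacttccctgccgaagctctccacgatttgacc
The windows of Adm, Egln3, Vegfa start 1 and Vegfa start 2 hold 2, 1, 0 and 2 matches. At least 1 match stood in 37 of the 49 promoters of the hypoxia list (75.5%), in 43.8% of all 32851 promoters, in 54.6% of those of genes called higher, 55.4% of those of genes called lower and 59.7% of those of genes tested and not called. A match is not a binding site, and these letters can lie outside the windows.

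A few genes of vessel sprouting were called higher in OIR. Of 12 endothelial tip cell genes tested, 3 were called higher and 0 lower, against 1.50% higher over all genes tested. All 12 had a fitted log2 fold change above 0, and the median was 1.82. The lists share members, so their counts are not separate: Adm, among these 3, is also in the hypoxia list. Apln, the peptide apelin released by tip cells, stood at 4.45, 1.29 and 5.47 CPM in normoxia and at 33.9, 40.6 and 19.3 CPM in OIR (log2 fold change 3.26, adjusted p = 0.00129). Cd34, a sialomucin of sprouting endothelium, stood at 4.63, 4.01 and 3.06 CPM and at 23.3, 20.8 and 3.83 CPM, so that OIR replicate 3 overlapped normoxia (2.01, adjusted p = 0.0392, a call lost without any library but OIR replicate 3). Esm1, Pgf, Mcam and Plvap, at 3.21, 3.42, 1.85 and 1.37, did not pass the test. Among 24 angiogenic ligands and receptors tested, 3 were higher: Vegfa, Apln and Edn2, a vasoconstrictor peptide that stressed photoreceptors make (chromosome 4, 120161206 to 120167360, plus strand), with 0 reads in normoxia and 41 in OIR, at least 31.1-fold higher against 3 reads over the normoxia group (adjusted p = 0.0128, lost without normoxia replicate 2 or OIR replicate 2, up to 0.0602). Vegfa is also in the hypoxia list, Apln in the tip cell list and Edn2 in the glial reactivity list. The receptors Kdr and Flt1, at 0.37 and -0.15, were not called, nor was the destabilizing ligand Angpt2 at 1.05.

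Endothelial markers at large did not pass the test, while matrix and mural genes did in part. Of 20 endothelial markers tested 0 were higher and 1 was lower: Ly6c1, at 5.16, 10.2 and 5.91 CPM against 0.98, 1.28 and 1.09 CPM (log2 fold change -2.66, adjusted p = 0.00724). Ly6c1 has a near-identical paralog whose reads may be shared, and its call was lost without normoxia replicate 2 (0.123). Pecam1 stood at 10.1, 14.5 and 1.97 CPM in normoxia and at 34.1, 26 and 16.6 CPM in OIR (1.43, adjusted p = 0.224), and Cdh5 and Cldn5 at 1.19 and 0.22 were not called either. Of 21 basement membrane and matrix genes, 4 were higher and 0 lower, against 1.50% higher over all genes tested. The median was 0.79, and 1 was called without normoxia replicate 1. Col18a1, collagen XVIII of vessel basement membranes, stood at 28.8, 24.4 and 22.3 CPM and at 62.3, 78.1 and 54.1 CPM (1.36, adjusted p = 0.000159) and kept its call in each setting. Fn1 (fibronectin), Nid1 (nidogen) and Sparc had log2 fold changes of 1.45, 1.65 and 0.42 (adjusted p = 0.00726, 0.00925 and 0.0165), calls that were lost when single libraries were left out (up to 0.155). Of 12 pericyte and smooth muscle markers, Acta2 (smooth muscle actin) and Mylk (myosin light chain kinase) were called higher, and Mylk lost the call in 5 settings (adjusted p up to 0.206). Acta2 stood at 1.25, 1.78 and 4.59 CPM in normoxia and at 36.8, 28.5 and 10.6 CPM in OIR (3.43, adjusted p = 0.00158), while the pericyte markers Pdgfrb and Rgs5, at 1 and 0.21, were not called. Rhoj, a small GTPase enriched in endothelium, had a log2 fold change of 1.64.

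The vascular lists moved with a single library. The summed CPM of the endothelial markers was 199, 203 and 187 in normoxia and 280, 301 and 178 in OIR replicates 1, 2 and 3, and that of the tip cell genes was 34.3, 25 and 28.7 against 115, 136 and 60.5. Red blood cell genes stood at 121, 132 and 148 against 278, 395 and 91.2, and lens crystallins at 1052, 1110 and 1103 against 1404, 1180 and 676. OIR replicate 3 was thus the lowest of the OIR libraries in all 4 sums, below normoxia in 3 of them. The other lens genes summed to 25.1, 27 and 19.2 CPM in normoxia and to 26.5, 23 and 18.4 CPM in OIR. Which tissue the crystallin reads came from was not tested. Of the red blood cell genes Hba-a1 and Hba-a2, near-identical copies of alpha globin, were called higher (1.43 and 1.62, adjusted p = 0.0274 and 0.0123). Their calls were lost in 5 and 3 settings, each of which left out a library (up to 0.18 and 0.11), and both without normoxia replicate 1. Of the 16 lens crystallins 0 were called in either direction by edgeR. Without OIR replicate 3, 4 endothelial markers, 10 matrix genes and 4 red blood cell genes were called higher in place of 0, 4 and 2. The part of vessel, blood and lens content in these differences was not tested.

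**Figure D4:**
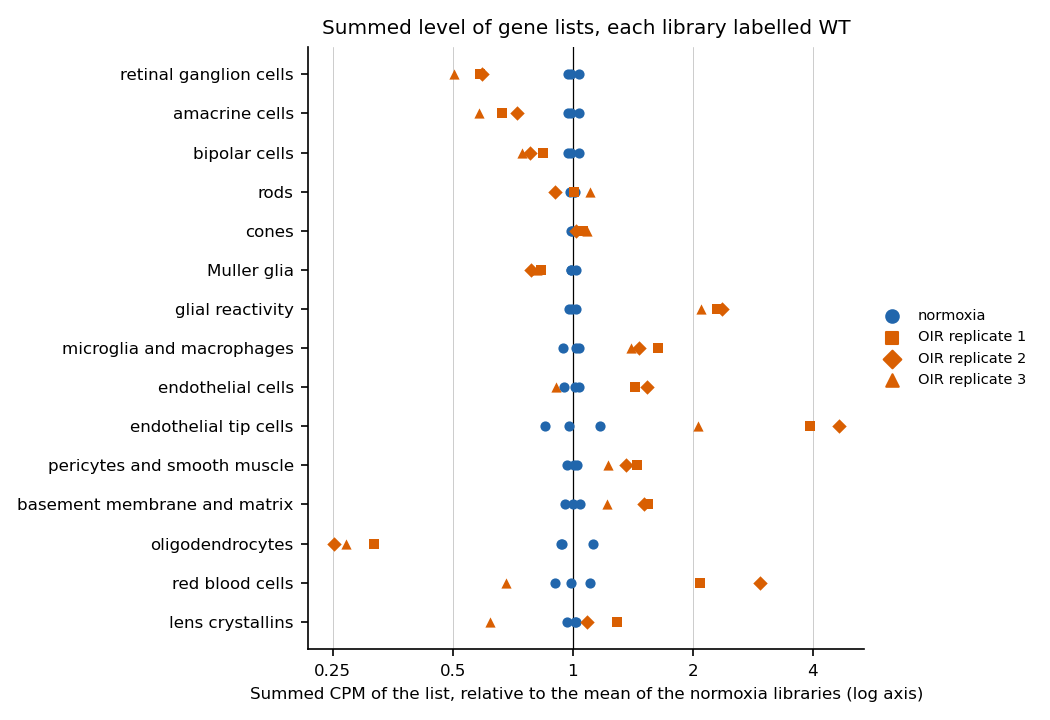
Summed CPM of the members of 15 gene lists in each library, divided by the mean of the 3 normoxia libraries and drawn on a log axis, circles for normoxia and squares, diamonds and triangles for OIR replicates 1, 2 and 3. The sums of ganglion, amacrine and bipolar cell markers lie below normoxia in each OIR library and those of glial reactivity and tip cell genes above it, whereas the sums of endothelial, red blood cell and lens genes in OIR replicate 3 lie apart from OIR replicates 1 and 2.

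Myelin genes had the lowest median of the lists with members tested. Of 13 oligodendrocyte genes tested, 7 were lower and 0 higher, against 2.77% lower over all genes tested, with a median of -2.24. Mbp (myelin basic protein) fell from 97.5, 81 and 86 CPM to 21.8, 23.2 and 27.7 CPM (log2 fold change -1.85, standard error 0.17, adjusted p = 1.54e-06), and Mag (myelin-associated glycoprotein) from 17.8, 19.1 and 18.6 CPM to 1.96, 2.19 and 0.73 CPM. Olig2, the transcription factor of the lineage, had 124 reads in normoxia and 0 in OIR, at least 15.9-fold lower when set against 3 reads over the OIR group (adjusted p = 0.00739). Cnp, a myelin enzyme that other cells also make, was not called at -0.35. The mouse retina itself is not myelinated and its axons are wrapped from the optic nerve on. How much optic nerve head each library holds is not given, and its part in these differences was not tested.

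Microglia and macrophage genes pointed upward with few calls. Of 19 tested, 2 were higher and 0 lower, against 1.50% higher over all genes tested, and 17 had a fitted log2 fold change above 0. The median was 1.01, which fell to 0.41 when only genes with at least 10 counts in every library were kept. The complement component C1qa stood at 7.83, 8.91 and 10.5 CPM in normoxia and at 18.9, 19.6 and 19 CPM in OIR (log2 fold change 1.08, adjusted p = 0.0271). C1qc stood at 3.20, 4.68 and 3.72 CPM and at 11, 10.1 and 10.4 CPM (1.41, adjusted p = 0.0424). Both calls were lost when any library but OIR replicate 3 was left out (up to 0.156). Cx3cr1, the fractalkine receptor that marks microglia, had 17.6, 25 and 15.7 CPM against 20.6, 21.4 and 28.3 CPM and was not called (0.25), nor was Csf1r, their growth factor receptor (0.41). Genes of other leukocytes were at or near 0 in both groups, with summed CPM of at most 3.68 in any library over 13 genes, and S100a8 and Cd3e had no reads. Of 6 complement genes tested, Serping1, the C1 inhibitor, was higher, at 3.74, 4.99 and 4.37 CPM against 10.8, 18.1 and 14.2 CPM (1.70, adjusted p = 0.00692, lost without OIR replicate 2, 0.0711).

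Of 20 interferon response and MHC class I genes tested, 4 were higher and 0 lower, against 1.50% higher over all genes tested, with a median of 0.50. B2m, the light chain of MHC class I, stood at 89.8, 69.7 and 80.9 CPM in normoxia and at 115, 142 and 114 CPM in OIR (log2 fold change 0.63, adjusted p = 0.0123), and H2-K1, a heavy chain with close paralogs, at 6.40, 2.89 and 3.94 CPM and at 11.8, 13.7 and 11.1 CPM (1.51, adjusted p = 0.0306). Irf7, a transcription factor of the interferon response, had a log2 fold change of 2.11 (adjusted p = 0.00543), and Ifitm3, an antiviral membrane protein also high in vessels, of 1.47 (adjusted p = 0.0215), at 46.6, 30.9 and 16 CPM in OIR. The classical interferon-induced genes Ifit1 and Ifit3, at 0.51 and -0.04, were not called. Each of the 4 calls was lost when single libraries were left out (up to 0.15), all 4 without normoxia replicate 2.

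Genes of transmitter release fell in a subset. Of 25 presynaptic genes 5 were lower and 0 higher, against 2.77% lower over all genes tested. The median was -0.24, and 3 were called without normoxia replicate 1 and 9 without OIR replicate 3. Cplx1, the complexin of conventional synapses, stood at 173, 177 and 182 CPM in normoxia and at 90, 92.9 and 72.4 CPM in OIR (log2 fold change -1.06, standard error 0.13, adjusted p = 4.59e-05), and Cplx2, Syn2 (synapsin 2), Vamp1 and Syp (synaptophysin) had -0.59, -0.79, -1.09 and -0.55. The complexins of the ribbon synapses of photoreceptors and bipolar cells, Cplx3 and Cplx4, at -0.28 and 0.18, and the vesicular glutamate transporter of these cells, Slc17a7, at 0.01, were not called. Cplx1, Syn2 and Vamp1 kept their calls in each setting, and Cplx2 lost its call without normoxia replicate 1 or 2 (up to 0.0963).

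**Figure D5:**
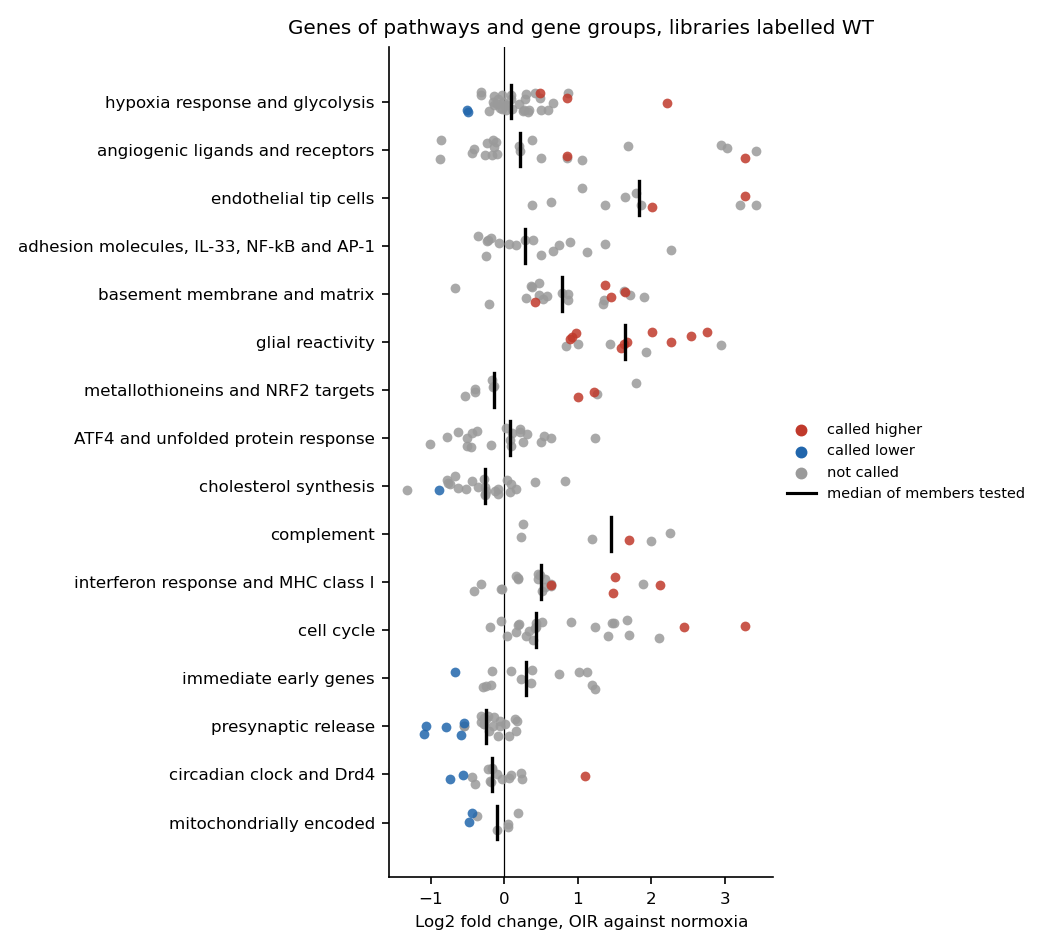
Log2 fold change of OIR against normoxia for each member tested of 16 pathways and gene groups, 1 point per gene, with red, blue and grey for called higher, called lower and not called, and a black bar at the median. Glial reactivity genes all lie above 0, presynaptic genes lie mostly below it, and Adm and Edn2, with no reads in normoxia, are left out.

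Drd4, the dopamine D4 receptor of photoreceptors, whose message follows light and the clock, was higher in OIR, at 489, 535 and 518 CPM in normoxia and 1100, 925 and 1280 CPM in OIR (log2 fold change 1.10, adjusted p = 1.01e-05). Of the core clock genes, Per1, Per2, Arntl and Clock, at 0.23, -0.39, -0.16 and -0.03, were not called. Hlf, a clock output factor, fell from 296, 313 and 329 CPM to 185, 202 and 176 CPM (-0.74, adjusted p = 0.000429), and Nr1d1 (REV-ERB alpha) had -0.57 (adjusted p = 0.0481), a call lost in 10 settings. The hour of the day at which retinas were taken is not given in the sources used here. Of 14 immediate early genes tested, Egr1 was lower, at 128, 128 and 128 CPM against 68, 90.9 and 83.0 CPM (-0.67, adjusted p = 0.00594), and Fos, at -0.25, was not called.

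Other lists held few calls, where 1.50% of all genes tested were called higher and 2.77% lower. Of 23 cell cycle genes tested, the proliferation markers Mki67, at 0.36, 2.85 and 0.88 CPM against 10.3, 11.2 and 4.56 CPM, and Top2a, at 0.53, 2.45 and 0.88 CPM against 21.6, 19.6 and 3.28 CPM, were higher (log2 fold changes 2.45 and 3.27, adjusted p = 0.0232 and 0.0171), calls that were lost when single libraries were left out (up to 0.148). Spc25, a kinetochore gene that moved the other way, was lower at 325, 340 and 335 CPM against 110, 109 and 73.1 CPM. Of 24 genes of cholesterol synthesis, 0 were called higher by edgeR and 18 had a fitted log2 fold change below 0, with a median of -0.26. Of 21 genes of the factor ATF4 and the unfolded protein response 0 were called by edgeR, with a median of 0.08. The mitochondrially encoded genes ND1 and ND2 were lower, at -0.48 and -0.44 (adjusted p = 0.00915 and 0.0197), and the other 5 tested were not called, COX1 at 0.05 among them. Of 13 retinal pigment epithelium genes, Lrat was lower (-0.84, adjusted p = 0.0346), and Rpe65 and Rgr, at 0.09 and -0.07, were not called. The calls of ND1, ND2 and Lrat were each lost when single libraries were left out (up to 0.187).

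Of 17 genes tested in the list of adhesion molecules, IL-33, NF-kB and AP-1, which the study is about, edgeR called 0, and the median was 0.29. The study measured VCAM-1, ICAM-1, E-selectin and JunB in OIR retina as protein by Western blot. The values here are RNA of the whole retina, so the 2 are unlike measures. Vcam1, the vascular cell adhesion molecule, stood at 15.8, 13.1 and 12.2 CPM in normoxia and at 11, 11.5 and 12.8 CPM in OIR (log2 fold change -0.22, standard error 0.29, adjusted p = 0.778). Its reads numbered 89, 295 and 56 in normoxia and 45, 63 and 70 in OIR. Icam1 had 4, 2 and 0 reads in normoxia and 0, 4 and 7 in OIR, and Sele had 0 reads in normoxia and 0, 2 and 2 in OIR, too few to test. Il33 stood at 29, 22 and 31.1 CPM and at 22.3, 22.3 and 26.8 CPM (-0.18, adjusted p = 0.756). Junb, a subunit of the transcription factor AP-1, stood at 19.4, 15 and 14.4 CPM in normoxia and at 23.1, 29.6 and 28.6 CPM in OIR without overlap (0.74, standard error 0.24, adjusted p = 0.0820). It passed the threshold in 2 of 16 other settings, the newer quasi-likelihood method and the fit to all 12 libraries.

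The libraries labelled Casp1 KO were set beside these in a fit to all 12 libraries, with a test of the difference between the 2 OIR effects, in which 190 of 14903 genes were called (1.27%). Each label has its own normoxia libraries. Under the Casp1 KO label, OIR itself was called for 3.76% of all genes tested, in either direction. Of 223 genes called higher under the WT label, 166 had the same sign under the other. There 68 were called in the same direction and 6 in the opposite, 40 differed between the labels, and the medians were 1.07 and 0.41. Of 412 called lower, 345 had the same sign, 115 were called in the same direction, 3 in the opposite and 56 differed, with medians of -0.75 and -0.35. Since these genes were chosen for their change under the first, smaller values in the second follow in part from the choice.

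The lists were unlike in this comparison, where 1.27% of all genes tested had a called difference. They were chosen with earlier results of these data known, and the WT effect is part of the difference. The counts below thus describe the lists and do not test them. Glial reactivity genes had medians of 1.65 and 1.62 with 0 of 16 differences called, and Gfap had log2 fold changes of 1.63 and 2.29. Ganglion cell markers had medians of -0.60 and -0.77 with 0 of 14 differences called, and Nefl had -0.91 and -0.94. Amacrine markers had medians of -0.78 and 0.04 with 4 of 16 differences called, and Muller markers -0.35 and 0.34 with 7 of 14 differences called. Glul was the clearest of these, with means of 1139 and 707 CPM in normoxia and OIR under the WT label and of 822 and 1081 CPM under the Casp1 KO label (difference of the log2 fold changes 1.08, standard error 0.12, adjusted p = 8.31e-07). Oligodendrocyte genes had medians of -2.56 and 0.21 with 5 of 10 differences called, and Mbp had a mean of 87.9 CPM in normoxia with the WT label, 24.3 CPM in OIR with the WT label, and 19.4 and 19.6 CPM in the 2 groups labelled Casp1 KO. Lens crystallins had medians of -0.02 and 0.90 with 5 of 16 differences called, and the oxygen days of the pups labelled Casp1 KO are given only as 3 days after OIR. Vegfa, at 0.85 and 0.94, did not differ by a called amount (difference 0.09, standard error 0.19, adjusted p = 0.911).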

How the data were processed

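Retinal mRNA of C57BL/6 pups labelled WT was compared between OIR and normoxia, 3 libraries each, and the groups were taken from the labels. According to the methods and the submitters' processing notes, libraries of transcript 3′ ends (QuantSeq) were aligned to mm10 by the authors with STAR 2.7.5a, and reads were counted with HTSeq 0.6.1. The deposited counts are whole numbers of reads per gene symbol for 35976 genes, without normalization. The gene annotation and strand setting are not given in the sources used here, and no molecular identifiers are described, so limits from counts cover counting error only.

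Genes with a mean of at least 1 CPM over the 6 libraries (14946) were fitted in R 4.3.3 with edgeR 4.0.16, TMM scaling, robust dispersion estimates and the older quasi-likelihood test, with Benjamini-Hochberg adjustment and a threshold of 0.05. Fold changes used a prior count of 0.125, and a standard error is the fold change over the root of its F statistic. In counts simulated from these libraries over 14602 genes, recovery was 47.4% for a log2 change of 1 and 69% for a log2 change of 2, and 16 unchanged genes were called. Only a small part of the genes was changed, so the 16 put the share of false calls above the threshold of 0.05. Genes were drawn independently, without a library that lies apart as OIR replicate 3 does. Depth per library was 4049035 to 22815830 counts.

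The 34 gene lists and all members were chosen with earlier results of these data known. Named are, in each direction, the 15 called genes of smallest p whose log2 change is 1 or more in size and whose groups are free of overlap, predicted gene models aside, then up to 4 called members each way and the first 3 markers of each cell class list, and the genes the study is about. Other list members named with a value were chosen after their values were seen. Positions come from GENCODE vM21 on GRCm38 (13655 of the genes tested matched 1 position) and promoters from RefSeq on GRCm38.p6. Alternatives were other scalings, filters, DESeq2 1.42.0, other quasi-likelihood settings, all 12 libraries, the replicate number as a block and each library left out. The libraries labelled Casp1 KO entered only the side-by-side comparison and the alternative fit to all 12 libraries. Some genes that the rule selects are not reported here.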

Additional observations from a re-analysis of the deposited data

Results flagged for a closer look

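For 30 of the genes named, the OIR effect under the WT label differed from that under the Casp1 KO label by the test of the difference itself in edgeR's quasi-likelihood fit to all 12 libraries, and each value below is the difference of the 2 log2 fold changes, Casp1 KO label minus WT label. Over all 14903 genes in that fit, 1.27% differed. The naming rule selects 129 tested genes, some not reported here, and 89 of them were called under the WT label. Since the WT effect is part of the difference, a larger share among named genes follows in part from the choice. Reads of Casp1 run counter to these labels, and the cause of the differences was not tested.

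Among Muller glia genes the differences were 1.08 for Glul, 0.98 for Rlbp1 and 0.77 for Prdx6. Among myelin genes they were 1.87 for Mbp, 3.04 for Mag and 2.75 for Mal, and their levels were low in both groups labelled Casp1 KO. Among genes of inner retinal neurons they were 0.82 for Lrtm1, 1.06 for C1ql1, 0.95 for Cabp1, 0.58 for Tfap2b, 2.01 for Cck, 1.16 for Gad2 and 0.68 for Cartpt. All of these were lower in OIR under the WT label.

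The metallothioneins Mt1 and Mt2 had 0.87 and 1.19. The differences were negative for Vcan (-2.61), H19 (-1.86), Col18a1 (-1.13) and Ccnd2 (-0.78). The pigment epithelium genes Rpe65 and Lrat had 0.86 and 1.22. Other genes with positive differences were Egr1 (1.56), Hlf (0.72), Nf2 (0.69), Dio2 (0.81), Spc25 (0.74) and Hk2 (0.59).

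The Y-linked genes Eif2s3y, Uty and Ddx3y had differences of -2.83, -1.43 and -1.44. Eif2s3y was called higher in OIR under the WT label.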

How the results depend on the processing

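The direction of each called gene that the naming rule selects was the same in each setting that tested it. Of the 89 called genes that the naming rule selects, 50 kept the call in each setting and 39 lost it in at least 1, mostly when a library was left out, which leaves a group with 2 libraries. The number called was 638 and became 1063 in the fit to all 12 libraries. The number called higher was 224 and became 361 with all genes of at least 1 count, 337 with DESeq2, 370 with the newer quasi-likelihood method and 456 in the fit to all 12 libraries. The other scalings and filters left the counts within 1.5 times. With a library left out, the number called ran from 281 to 1064, the number higher from 93 to 465 and the number lower from 178 to 599. The upper ends are those without OIR replicate 3. The 190 genes whose OIR effect differed between the labels became 81 to 565 with a library left out, the last without WT OIR replicate 3, and the count was 127, 210 and 126 without WT normoxia replicate 3, WT OIR replicate 1 and Casp1 KO OIR replicate 3 and at most 122 without any other single library. The cause of these shifts was not tested.

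Samples with the same replicate number did not deviate together (correlations of -0.020, -0.005 and 0.023), and unlike numbers ran from -0.039 to 0.049. With 3 libraries a side, this check cannot exclude a link between samples of the same number. With the number as a replicate block 573 genes were called, 197 higher and 376 lower, and 185 in the comparison of labels. The median of the astrocyte list was -0.33 and became 0.46 with at least 10 counts in every library. Depth limits low genes: a count of 0 allows 0.131 to 0.741 CPM.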
